A study of Mus musculus with 18 samples.

Results

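Macrophages of the mouse larynx were followed through 10 marker genes, Adgre1, Csf1r, Cd68, Mrc1, Lyve1, Cd163, C1qa, C1qb, C1qc and Marco, taken by gene name from a deposited table of read counts. All 10 were found among the 54532 genes listed, and 9 of them were among the 17537 genes with enough counts to test. Marco had too few. Whole larynges of male C57BL6/J mice, 8 to 9 weeks old, gave 18 mRNA-seq libraries. The mice had spent 1 hour daily, 5 days each week, in a whole-body inhalation chamber over 4 weeks. The groups of 6 libraries breathed room air, smoke of the 3R4F research cigarette ("smoke"), or aerosol of JUUL Virginia tobacco e-cigarettes ("e-cigarette"). The labels name no transgene, no deletion and no other agent in any group. The study asked how the larynx responds to each exposure relative to air and to the other, and libraries are called here by group and replicate number (air 1, smoke 5).

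Macrophages are phagocytes that settle in tissues before and after birth and are kept alive there by the growth factors Csf1 and Il34, both ligands of the receptor Csf1r. In connective tissue and around vessels and nerves, resident macrophages take up proteins, dead cells and haemoglobin through scavenger receptors and make C1q, the recognition molecule of the classical complement pathway. Macrophages in airspaces carry partly different surface genes, among them Marco. None of the markers is restricted to 1 cell type in every tissue, and Lyve1 is also a gene of lymphatic endothelium.

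Libraries ranged from 15.6 to 17.1 M counts (air), 15.9 to 20.3 M (smoke) and 16.7 to 22.5 M (e-cigarette), of which 3316 to 6661 per library were on the 10 markers. Levels are given as CPM, counts scaled to a common library size with TMM factors, and tests are edgeR's quasi-likelihood F test on 17537 genes with Benjamini-Hochberg adjustment. A gene is called, and is said to have risen or fallen, where the adjusted p is below 0.05. Fold changes are log2 values with a standard error (SE) or a 95% confidence interval. Tissue content differed between groups. Tg, the thyroglobulin gene of the adjoining thyroid, held 6.13% to 10.2% of all counts in the air libraries. Its share was 5.87% to 9.24% in those of smoke and 0.00795% to 2.77% in those of e-cigarette. Of 12 skeletal muscle genes, 9 rose in e-cigarette against air, where 12.1% of all genes did. The summed level of the 12 was 21823 to 39069 CPM in air, 31367 to 44134 after smoke and 40389 to 53345 after e-cigarette aerosol. In whole tissue, fewer macrophages and less of a transcript per macrophage cannot be told apart. Whether a library stands for 1 animal is not stated in the labels, and a p-value here reflects only how these samples vary.

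In brief, the mannose receptor gene Mrc1 was higher after e-cigarette aerosol than in air, and no other tested marker passed the test in any comparison. After smoke, 0 of 9 tested markers were called against air, where 1.59% of all genes tested were called (0.975% higher and 0.616% lower). After e-cigarette aerosol, 1 of 9 was called against air, where 25.1% of all genes were called (12.1% of all genes higher and 13.0% lower). Between smoke and e-cigarette, 0 of 9 were called, where 16.5% of all genes were (10.4% higher and 6.10% lower in smoke). With library totals in place of TMM factors, 1432 genes were called higher and 3384 lower in e-cigarette versus air, in place of 2128 and 2278, and Mrc1 was not called. The same scaling gave 115 higher and 179 lower in smoke versus air, in place of 171 and 108. No marker's groups were free of overlap in any comparison, while this was so for 2.43%, 10.5% and 9.37% of all genes in smoke versus air, e-cigarette versus air and smoke versus e-cigarette.

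**Figure D1:**
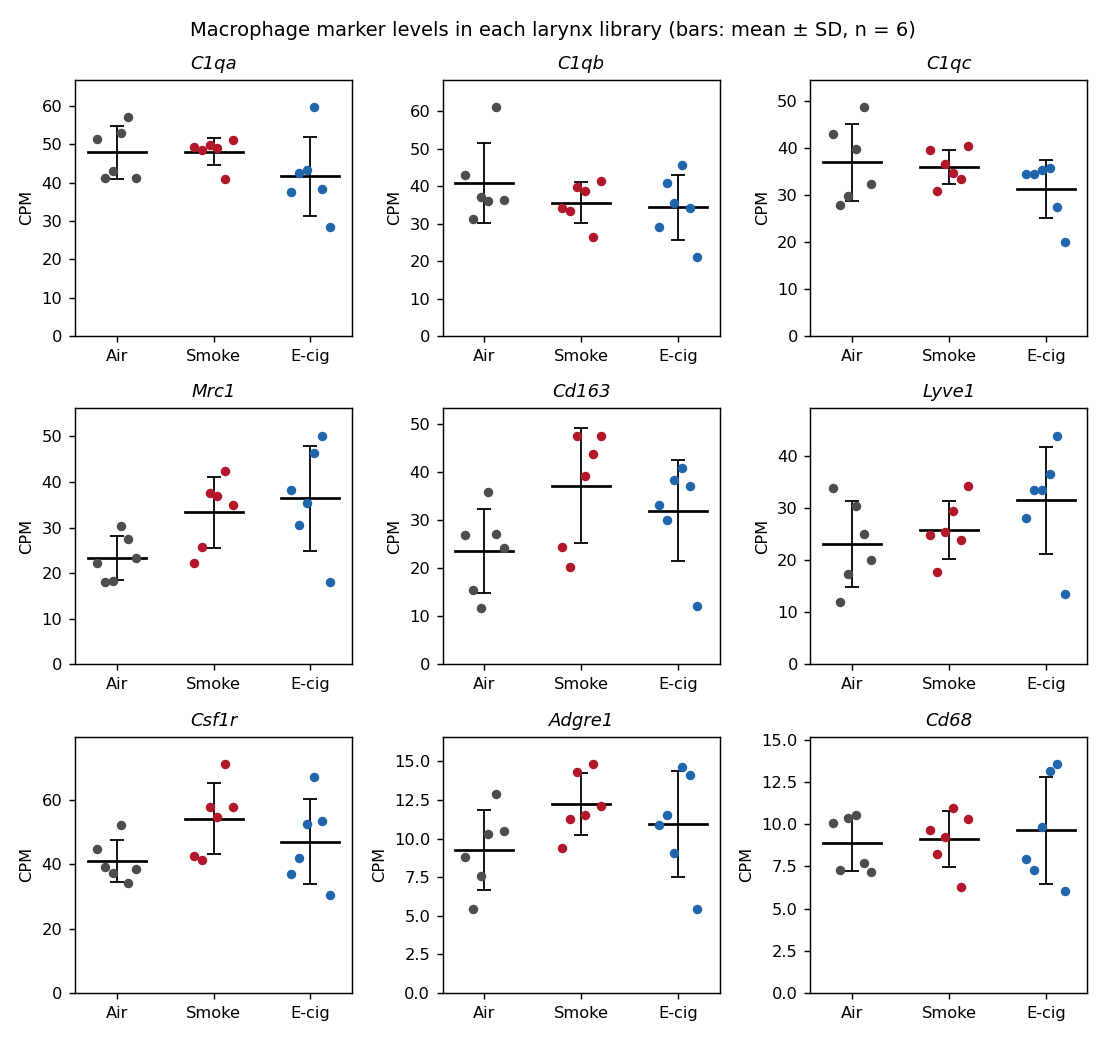
CPM of the 9 tested markers in each library (vertical axes, linear and starting at 0), by group of 6 libraries, in replicate order from left to right. Points are libraries and bars are the group mean ± SD. In Mrc1, 5 of the 6 e-cigarette points lie above all air points, and the lowest, that of e-cigarette 6, is level with the lowest air point at 18.1 CPM.

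Apart from Marco, every marker was detected in all 18 libraries, at 5.43 CPM or more. Compared per kilobase of the deposited gene length, over all 18 libraries, C1qa stood at 44.1 CPM per kb, C1qb at 34.0 and C1qc at 18.0. Csf1r, the growth factor receptor, followed at 9.71, Lyve1 at 9.21, the endosomal glycoprotein gene Cd68 at 7.32, the haemoglobin receptor gene Cd163 at 5.65, Mrc1 at 4.87, and Adgre1, which encodes the F4/80 antigen, at 3.34. C1qb exceeded C1qc, C1qc exceeded Csf1r, and Mrc1 exceeded Adgre1 in 18 of 18 libraries. The order in the middle was loose. Csf1r was above Lyve1 in 12 of 18 libraries, Lyve1 above Cd68 in 14, Cd68 above Cd163 in 15 and Cd163 above Mrc1 in 13. Marco was last at 0.0464 CPM per kb.

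Promoter sequences show what these genes carry upstream. RefSeq's promoter table (GRCm38.p6, 250 bases before to 50 after the start site, written along the gene's strand) held 6 of the 10 markers, C1qb, C1qc, Cd163, Cd68, Marco and Mrc1. The others, Adgre1, C1qa, Csf1r and Lyve1, are named only. The letters GAGGAA, the core bound by the macrophage regulator PU.1 (gene Spi1), were searched on both strands. They occurred in 5 of the 6 marker promoters and in 28.3% of all 32851 promoters of the table. A pair of C1q promoters is shown because the C1q genes correlated across libraries, Mrc1 because it was called, and Cd163 because it is the promoter of the 6 without the letters. Capitals mark GAGGAA, or TTCCTC where it lies on the other strand.
C1qb promoter, chr4:136886151-136886450, minus strand: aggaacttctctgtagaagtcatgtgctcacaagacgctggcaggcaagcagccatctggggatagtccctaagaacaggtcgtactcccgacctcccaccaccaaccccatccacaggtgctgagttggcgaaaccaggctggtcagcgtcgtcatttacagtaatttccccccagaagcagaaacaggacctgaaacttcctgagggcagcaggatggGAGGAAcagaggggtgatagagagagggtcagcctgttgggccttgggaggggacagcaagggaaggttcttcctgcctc
C1qc promoter, chr4:136892865-136893164, minus strand: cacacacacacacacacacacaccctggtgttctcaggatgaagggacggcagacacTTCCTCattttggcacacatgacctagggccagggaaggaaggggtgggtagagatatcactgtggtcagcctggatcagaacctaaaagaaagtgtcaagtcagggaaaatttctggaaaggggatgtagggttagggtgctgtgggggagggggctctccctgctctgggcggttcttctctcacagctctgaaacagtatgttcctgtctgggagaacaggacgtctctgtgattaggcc
Mrc1 promoter, chr2:14229164-14229463, plus strand: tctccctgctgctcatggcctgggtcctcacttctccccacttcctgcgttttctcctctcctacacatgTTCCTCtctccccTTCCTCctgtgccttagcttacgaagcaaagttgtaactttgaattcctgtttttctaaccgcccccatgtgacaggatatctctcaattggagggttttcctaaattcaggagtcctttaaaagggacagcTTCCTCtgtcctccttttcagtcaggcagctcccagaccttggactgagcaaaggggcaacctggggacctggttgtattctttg
Cd163 promoter, chr6:124304401-124304700, plus strand: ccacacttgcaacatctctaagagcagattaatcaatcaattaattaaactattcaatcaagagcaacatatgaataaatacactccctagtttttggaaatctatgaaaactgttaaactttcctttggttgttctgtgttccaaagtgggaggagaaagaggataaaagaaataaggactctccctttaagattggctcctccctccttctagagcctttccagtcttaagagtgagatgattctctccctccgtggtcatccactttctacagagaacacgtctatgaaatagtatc
The match lies 30 bases before the start site in C1qb and 193 before it in C1qc, and Mrc1 has matches at 180, 167 and 35 bases before it. For C1qc, RefSeq's start site lies 151 bases downstream of the deposited gene start, so much of its window lies inside the deposited gene. The same offset is -13 for C1qb, 22 for Mrc1 and -5 for Cd163. The AP-1 letters TGANTCA and the C/EBP letters TTGCNNAA, where N is any base, each occurred in 1 of the 6 marker promoters, Cd68, against 7.81% and 10.8% of all promoters. These are letter matches in a window, and binding was not measured.

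C1qa, C1qb and C1qc encode the A, B and C chains that assemble into C1q. The genes lie side by side on the minus strand of chromosome 4, within 18.675 kb (GRCm38, 136880129 to 136898803). C1qa (ENSMUSG00000036887, 136895917 to 136898803) read 41.2 to 57.1 CPM in air (median 47.3), 40.9 to 51.0 after smoke (49.1) and 28.4 to 59.6 after e-cigarette aerosol (40.4). The smoke libraries lay inside the air range except smoke 5, and e-cigarette libraries lay on both sides of it. C1qb (ENSMUSG00000036905, 136880129 to 136886187) read 31.3 to 61.1 CPM in air (36.6), 26.6 to 41.4 after smoke (36.4) and 21.0 to 45.6 after e-cigarette aerosol (34.9). Its highest value of all was that of air 5, and the other air libraries lay among the exposed ones. C1qc (ENSMUSG00000036896, 136889804 to 136893065) read 28.0 to 48.7 CPM in air (36.1), 30.9 to 40.4 after smoke (35.7) and 20.1 to 35.7 after e-cigarette aerosol (34.5), again with air 5 highest.

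The fold changes of the C1q genes were small and none was called. Against air, smoke gave 0.01 for C1qa (95% interval -0.27 to 0.28), -0.19 for C1qb (-0.56 to 0.17) and -0.04 for C1qc (-0.34 to 0.26). E-cigarette against air gave -0.20 (-0.48 to 0.07), -0.25 (-0.61 to 0.11) and -0.24 (-0.55 to 0.06) in the same order, all below 0. Smoke against e-cigarette gave 0.21, 0.05 and 0.20. The C1qa value after e-cigarette leaned on e-cigarette 4, its highest library: without it the fold change was -0.35, with adjusted p = 0.0325 in edgeR.

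Mrc1, Cd163 and Lyve1 encode endocytic receptors, for mannosylated glycoproteins, for haptoglobin-haemoglobin complexes and for hyaluronan. Mrc1 (ENSMUSG00000026712, chromosome 2, 14229392 to 14332057) read 18.1 to 30.5 CPM in air (median 22.8), 22.1 to 42.5 after smoke (36.0) and 18.1 to 50.2 after e-cigarette aerosol (36.8). Of the e-cigarette libraries, 5 lay above every air library, and e-cigarette 6 was level with the lowest of them. Of the smoke libraries, 4 lay above every air library. Mrc1 rose in e-cigarette against air by 0.64 on the log2 scale, a 1.56-fold difference (SE 0.21, interval 0.20 to 1.08, edgeR adjusted p = 0.0309), and stood 0.51 above air in smoke (interval 0.07 to 0.95, adjusted p = 0.180). The exposures differed from each other by -0.13 (smoke versus e-cigarette, interval -0.56 to 0.31). Mrc1 was not called in e-cigarette against air in 14 of 33 alternatives, and 7 of these left out 1 library each (air 1, 2, 3 or 6, or e-cigarette 1, 4 or 5), with 0.51 to 0.63. Without e-cigarette 6 it was 0.77 (adjusted p = 0.00358).

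Cd163 (ENSMUSG00000008845, chromosome 6, 124304656 to 124330527) read 11.7 to 35.8 CPM in air (median 25.5), 20.2 to 47.5 after smoke (41.5) and 12.1 to 40.9 after e-cigarette aerosol (35.1). It had the widest spread of the tested markers in air, with a coefficient of variation of 37.0%, and 4 of 6 smoke libraries lay above all of air. Its fold change was 0.66 in smoke against air (interval 0.02 to 1.30, edgeR adjusted p = 0.238) and 0.44 in e-cigarette against air (-0.20 to 1.08, adjusted p = 0.314). Lyve1 (ENSMUSG00000030787, chromosome 7, 110850607 to 110863239) read 12.0 to 33.9 CPM in air (22.6), 17.7 to 34.3 after smoke (25.1) and 13.5 to 44.0 after e-cigarette aerosol (33.5). The groups overlapped broadly, and the fold changes were 0.16 in smoke (-0.38 to 0.70) and 0.45 in e-cigarette (-0.09 to 0.99, adjusted p = 0.220). In e-cigarette against air, 12.1% of all genes rose and 25.1% were called in either direction. Of the lymphatic endothelial genes, which share Lyve1, 2 of 9 tested rose there, Pdpn by 0.34 and Reln by 0.74. The transcription factor gene that defines that endothelium, Prox1, was at -0.03 and its growth factor receptor gene Flt4 at -0.12, neither called. The list's summed level was 178 to 219 CPM in air and 206 to 285 in e-cigarette, and Ccl21a was at 0 counts in every group.

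Csf1r, Adgre1 and Cd68 are the markers used most widely across tissues. Csf1r (ENSMUSG00000024621, chromosome 18, 61105572 to 61132149) read 34.1 to 52.2 CPM in air (median 38.9), 41.2 to 71.1 after smoke (56.2) and 30.4 to 67.0 after e-cigarette aerosol (47.3). In smoke, 4 of 6 libraries lay above all of air, and the fold change of 0.40 (interval 0.05 to 0.75) had an edgeR adjusted p of 0.191. In e-cigarette it was 0.20 (-0.15 to 0.55). In the GENCODE M21 annotation an exon of Csf1r overlaps one of Hmgxb3 on the other strand, and the library kit does not mark strand. The Csf1r counts may include reads of Hmgxb3 or lack reads of the overlap, as the handling of shared reads is not given. Csf1r starts at 61100598 in that annotation, before the deposited start of 61105572.

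Adgre1 (ENSMUSG00000004730, chromosome 17, 57358691 to 57483527) read 5.46 to 12.9 CPM in air (median 9.57), 9.38 to 14.8 after smoke (11.8) and 5.43 to 14.6 after e-cigarette aerosol (11.2). The exposed groups each had 2 libraries above all of air, and the fold changes were 0.40 in smoke (interval -0.04 to 0.85) and 0.24 in e-cigarette (-0.21 to 0.68). Cd68 (ENSMUSG00000018774, chromosome 11, 69664213 to 69666153), a gene of the endosomes of phagocytes, read 7.19 to 10.5 CPM in air (8.89), 6.31 to 11.0 after smoke (9.43) and 6.03 to 13.6 after e-cigarette aerosol (8.87). The medians lay close together, and the fold changes of 0.04 in smoke and 0.12 in e-cigarette changed sign under other settings.

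Marco (ENSMUSG00000026390, chromosome 1, 120474538 to 120505024), a bacteria-binding scavenger receptor gene of airspace macrophages, had 3 counts over the 6 air libraries, 18 over smoke and 8 over e-cigarette. Single libraries ran from 0 to 0.445 CPM. Smoke 4 held 9 and smoke 1 held 6 of the 18 smoke counts, and air 5 held 2 of the 3 air counts. The ratio of smoke to air was 5.79 with an exact 95% counting interval of 1.69 to 30.7, and that of e-cigarette to air was 2.44 (0.585 to 14.3). Without smoke 4 the ratio of smoke to air was 3.58 (0.895 to 20.6), and without air 5 it was 14.4 (2.27 to 598). These intervals cover counting error only and not the spread between libraries.

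**Figure D2:**
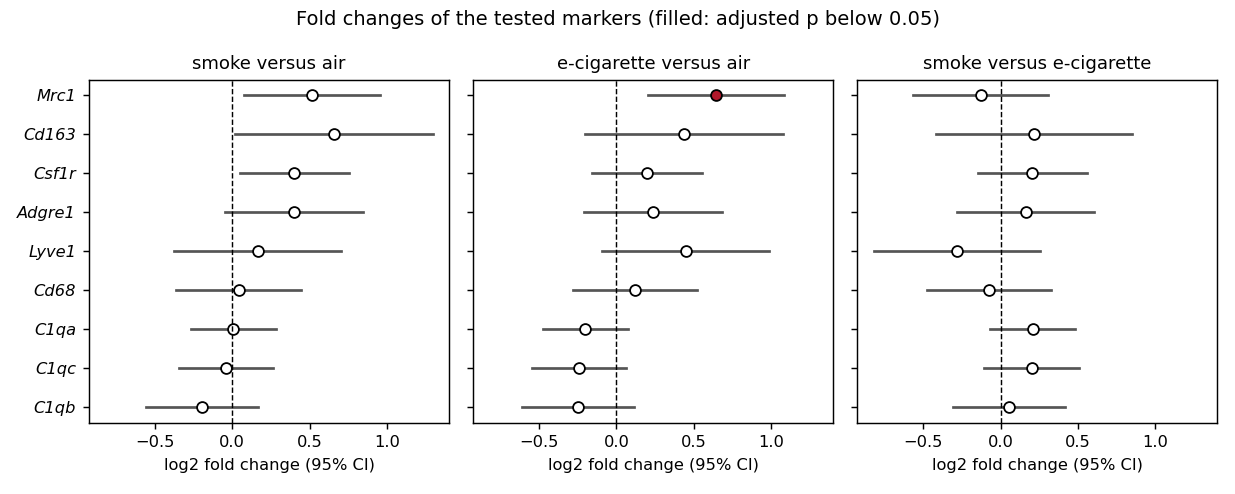
Log2 fold changes of the 9 tested markers (points) with 95% confidence intervals (lines) in the 3 comparisons, on a shared horizontal axis. The filled point, Mrc1 in e-cigarette versus air at 0.64, is the called one, and the 3 C1q genes lie below 0 in that comparison.

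As a list, more markers lay above 0 than below it in each comparison. In smoke against air, 7 of 9 tested markers had a fold change above 0 with a median of 0.16, while 51.6% of all genes did, with a median of 0.01. At an unadjusted p below 0.05, 3 of 9 were found, Mrc1, Csf1r and Cd163, where 19.9% of all genes were found. In e-cigarette against air, 6 of 9 were above 0 with a median of 0.20 (all genes 50.8%, median 0.01), and 1 of 9 had an unadjusted p below 0.05, where 36.9% of all genes did. In smoke against e-cigarette, 6 of 9 were above 0 with a median of 0.16 (all genes 49.0%, median -0.01), and at an unadjusted p below 0.05 the count was 0 of 9, where 29.4% of all genes were found, and DESeq2 also called 0. The comparisons against air share the air libraries, and the 3 comparisons are not independent.

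Across libraries the C1q genes correlated more among themselves than with the receptor genes. Over the 18 libraries the Pearson correlation of log2 CPM was 0.78 to 0.84 among the 3 C1q genes and 0.76 to 0.88 among Mrc1, Lyve1 and Cd163, but 0.18 to 0.55 between the groups. All 36 pairs of tested markers were above 0. With the group means removed, the ranges were 0.78 to 0.86, 0.75 to 0.89 and 0.48 to 0.78, so that those among the receptor genes and between the groups overlapped. Adgre1 and Csf1r sat nearer the receptor genes, with 0.84 and 0.76 to Mrc1. These values describe libraries that each share their depth and tissue content over all the genes.

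**Figure D3:**
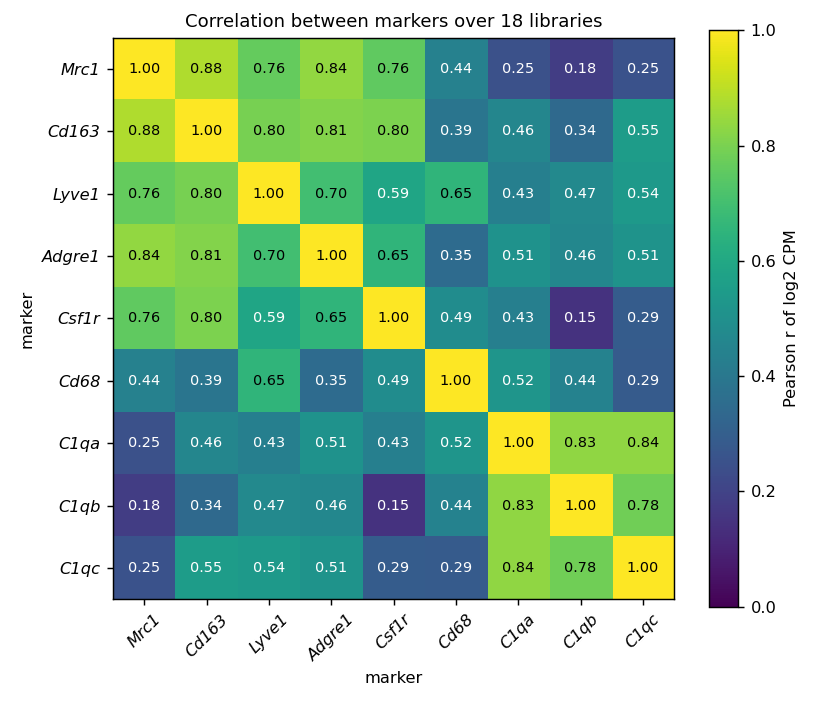
Pearson correlation of log2 CPM between each pair of the 9 tested markers over 18 libraries, as colour and number. The C1q genes form a block of 0.78 to 0.84 in the lower right corner, and Mrc1, Cd163 and Lyve1 one of 0.76 to 0.88 in the upper left.

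The balance between both gene groups differed most between air and e-cigarette. The mean log2 CPM of Mrc1, Lyve1 and Cd163 minus that of the C1q genes was -0.87 ± 0.32 in air, -0.35 ± 0.36 in smoke and -0.15 ± 0.35 in e-cigarette (SD, n = 6 each). The air libraries ran from -1.22 to -0.40 and the e-cigarette libraries from -0.67 to 0.39, so the groups overlapped. For the single pair C1qa and Mrc1, the ratio of CPM was 1.74 to 2.34 in air (median 2.18), 0.963 to 2.22 after smoke (1.39) and 0.765 to 1.57 after e-cigarette aerosol (1.26). Every air library was above every e-cigarette library in that ratio, e-cigarette 6 included. The ratio of C1qc to Mrc1 behaved alike, at 1.31 to 1.94 in air and 0.549 to 1.13 in e-cigarette, while that of C1qb to Mrc1 overlapped, at 1.18 to 2.22 and 0.684 to 1.34. By contrast, C1qa to C1qc was 1.17 to 1.47 in air, 1.22 to 1.57 after smoke and 1.09 to 1.67 after e-cigarette aerosol. These groupings and ratios were chosen after the values were seen and have no test.

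**Figure D4:**
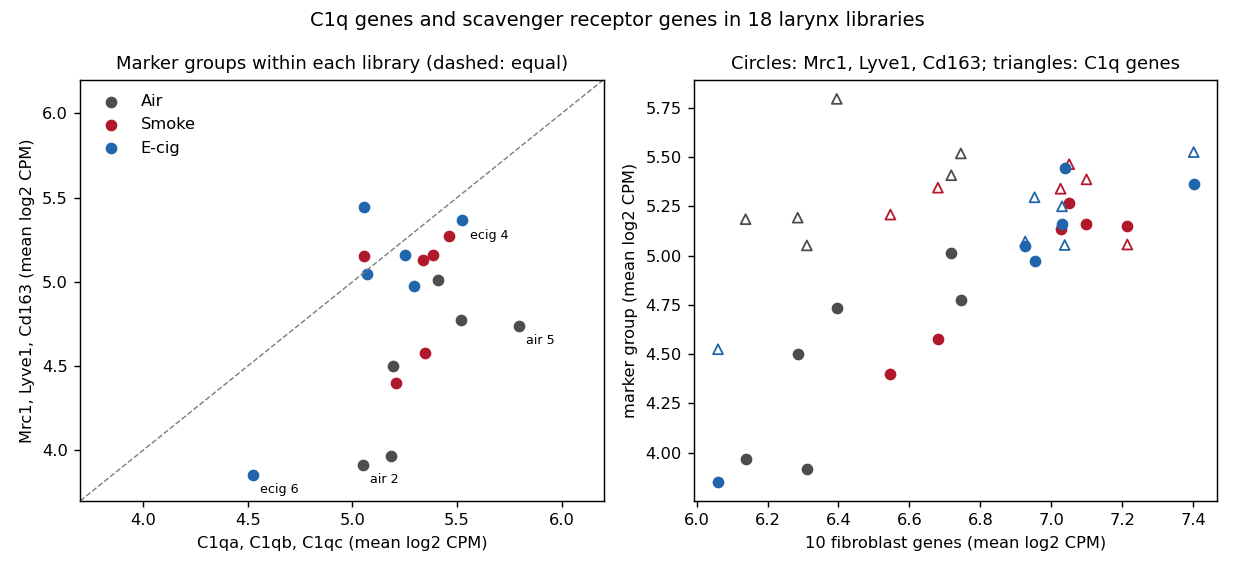
Left, the mean log2 CPM of Mrc1, Lyve1 and Cd163 against that of C1qa, C1qb and C1qc in each of 18 libraries, coloured by group, with equality dashed. Right, both means (receptor genes as circles, C1q genes as triangles) against the mean log2 CPM of 10 fibroblast genes. Over all libraries the receptor genes climb with the fibroblast genes (r = 0.92) and the C1q genes do so weakly (r = 0.34). With the group means removed, r is 0.91 and 0.66.

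The receptor markers moved with fibroblast genes. In e-cigarette against air, where 12.1% of all genes rose, 5 of 10 fibroblast genes rose (Dcn, Lum, Pdgfra, Mfap5 and Dpt, with a median of 0.47 over the 10). In smoke against air, where 1.59% of all genes were called, 0 of these 10 fibroblast genes were called, with a median of 0.45. Their summed level was 1168 to 1897 CPM in air, 1595 to 2702 after smoke and 1134 to 3426 after e-cigarette aerosol, and none was at 0. Over the 18 libraries the mean of the 3 receptor markers correlated with the fibroblast mean at r = 0.92 (Spearman 0.93; 0.87 without air 3 and e-cigarette 6, the libraries farthest from the median) and at 0.81 to 0.95 within each group of 6. For the C1q mean, r was 0.34 over all libraries and -0.02 without those libraries, and within groups it was 0.48 in air, -0.04 in smoke and 0.95 in e-cigarette. After removal of the group means r was 0.66 for the C1q mean and 0.91 for the receptor mean. With the fibroblast mean as a covariate, an alternative added after the data were seen, Mrc1 in e-cigarette against air was 0.10 (edgeR adjusted p = 0.714). In the same fit C1qa was at -0.46 and C1qc at -0.52, each with an adjusted p of 0.016, and C1qb was at -0.53 (adjusted p = 0.0561). How many of all genes that fit called is not given here.

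The genes whose levels followed the markers most closely were a mixture of leukocyte and connective tissue genes. The mean of the 9 standardised markers over 18 libraries was compared with 15204 protein-coding genes. Those most correlated with it were Ibsp at 0.90, a bone matrix protein gene, and Fcgr2b at 0.89, the inhibitory Fc receptor gene. Next were Itgbl1 at 0.87, Fcrls at 0.87, an Fc receptor-like gene of macrophages, and Vipr2 at 0.87. The single nearest gene of Mrc1 was Ogn, the osteoglycin gene of connective tissue, at 0.98, and it was still 0.94 to 1.00 within each group. Those of Csf1r, Cd163, Lyve1 and Adgre1 were Slit3 (0.94), Srpx (0.93), Angptl7 (0.91) and Fgf14 (0.88). For the C1q genes they were of another kind for C1qa and C1qb, Themis2 (0.86), a leukocyte signalling gene, and Fcgr3 (0.83), an activating Fc receptor gene, while C1qc had Pea15a (0.82). Cd68 had the weakest best match, Pde10a at 0.75. Each best match is the highest of 15204 correlations over 18 libraries. How high such a maximum runs without any relation was not tested.

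One library set the low end of nearly every marker. E-cigarette 6, the deepest at 22.5 M counts, had the lowest value of all 18 libraries in 7 of 9 tested markers and the lowest of its group in 9 of 9. It also had the lowest fibroblast sum, 1134 CPM, and its Tg share was 0.271%. In air, air 2 was lowest of its group in 6 of 9. The part of tissue content in these low values was not tested.

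Of the Csf1r ligands, Il34 fell after e-cigarette aerosol and Csf1 was not called. Il34 (ENSMUSG00000031750, chromosome 8, 110741829 to 110805924), made by epithelial cells and neurons among others, read 17.3 to 34.6 CPM in air (median 19.7), 10.4 to 18.1 after smoke (15.5) and 4.33 to 11.0 after e-cigarette aerosol (7.02). Every e-cigarette library was below every air library, and 10.5% of all genes had no overlap between these groups in either direction. Il34 fell by 1.67 on the log2 scale in e-cigarette against air (SE 0.21, edgeR adjusted p = 1.88e-05) and was higher in smoke than in e-cigarette by 1.06 (adjusted p = 0.00204), while smoke against air gave -0.61 (adjusted p = 0.114). Csf1 (ENSMUSG00000014599, chromosome 3, 107741048 to 107760469), the other Csf1r ligand, read 15.8 to 56.8 CPM in air, 24.5 to 34.6 after smoke and 22.4 to 34.1 after e-cigarette aerosol, with fold changes of 0.05 and -0.13 against air, neither called. In the e-cigarette libraries that kept the most Tg, e-cigarette 1 and 3, Il34 was at 6.19 and 11.0 CPM. With only these libraries kept in that group Il34 was -1.45 (adjusted p = 0.0146), and with a thyroid score as a covariate it was -1.69 (adjusted p = 0.0686), in a fit that called 5 genes of all higher and 15 lower.

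**Figure D5:**
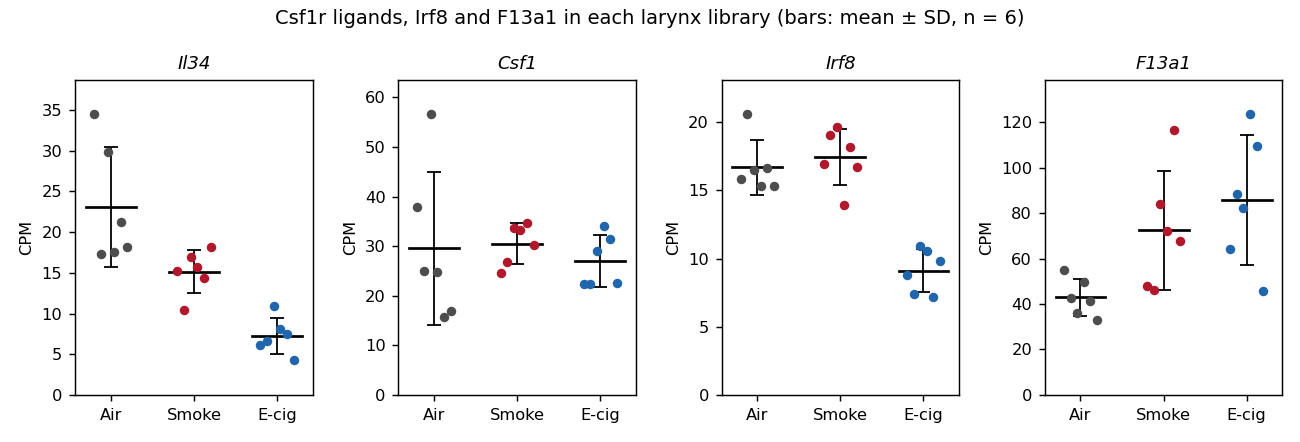
CPM of the Csf1r ligand genes Il34 and Csf1, of the transcription factor gene Irf8 and of F13a1 in each library by group (linear axes from 0; bars are mean ± SD, n = 6). All e-cigarette points of Il34 and Irf8 lie below all air points, and Csf1 overlaps. Of all genes, 10.5% have no overlap between air and e-cigarette.

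More lineage regulators fell than rose in e-cigarette against air. Of 15 tested regulators and growth factors 1 rose, Zeb2 (0.58), and 6 fell, among them Il34, Irf8, Id3 and Csf2ra, with a list median of -0.46. Of all genes, 12.1% rose and 13.0% fell in that comparison. Irf8, a transcription factor gene of monocytes, dendritic cells and B cells, read 15.3 to 20.6 CPM in air, 13.9 to 19.6 after smoke and 7.16 to 11.0 after e-cigarette aerosol. It fell by 0.87 (SE 0.12) in e-cigarette against air without overlap, as 10.5% of all genes had none there. The change was -0.68 (adjusted p = 0.196) with the thyroid score. Spi1, which encodes PU.1, was at -0.46 (adjusted p = 0.0535) and was not called. In smoke against air 0 of 15 were called, where 1.59% of all genes were, with a list median of -0.04. Between smoke and e-cigarette, 6 were higher and 0 lower in smoke, where 10.4% of all genes were higher and 6.10% lower. Beside this stand the thyroid genes, of which 9 of 12 fell in e-cigarette against air, with a summed level of 57213 to 98979 CPM in air and 145 to 29333 in e-cigarette.

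Of 19 tested genes of resident macrophages beyond the markers, 4 rose and 1 fell in e-cigarette against air, with a median of 0.22. Of all genes, 25.1% were called there (12.1% higher and 13.0% lower), so the list was called at about the share of all genes. In smoke against air 0 of the 19 were called, where 1.59% of all genes were, with a list median of 0.16. F13a1, the coagulation factor XIII A chain gene of resident macrophages, read 33.0 to 54.9 CPM in air, 46.2 to 117 after smoke and 45.8 to 124 after e-cigarette aerosol, and rose by 1.00 in e-cigarette (SE 0.24, edgeR adjusted p = 0.0055). Clec10a, a galactose-type lectin gene, rose by 0.57 (adjusted p = 0.0273), Pf4 by 0.43 and Selenop by 0.40, while Ms4a7 fell by 0.65. Folr2 and Timd4 were at 0.22 and 0.57 and were not called. Leaving out single libraries left 1 to 5 of the 19 called, with 1 left without air 6, e-cigarette 4 or e-cigarette 5. With the fibroblast mean as a covariate F13a1 was 0.39 (adjusted p = 0.0549) and Clec10a 0.23 (adjusted p = 0.389). Siglec1, the sialoadhesin gene, read 1.67 to 2.89 CPM in air and 3.38 to 5.74 in smoke without overlap, at 0.98 (adjusted p = 0.102), and is named after its values were seen. Such groups did not overlap in 2.43% of all genes in smoke against air.

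Among scavenger and phagocytic receptor genes, Mertk, a receptor for dying cells, was called in both exposures. It read 12.4 to 18.2 CPM in air, 17.6 to 24.8 after smoke and 15.6 to 22.9 after e-cigarette aerosol, and rose by 0.50 in smoke (SE 0.12, edgeR adjusted p = 0.0433) and by 0.43 in e-cigarette (SE 0.12, adjusted p = 0.0133). It was the 1 of 20 called in smoke, where 1.59% of all genes were called. That call was lost in 21 of 33 alternatives, among them those without air 3, 4, 5 or 6, smoke 3, 4, 5 or 6, or e-cigarette 2, 3 or 4. Over all alternatives the smoke value stayed between 0.35 and 0.56. In e-cigarette, 3 of 20 rose (Cd36, Mertk and Colec12) and 3 fell (Trem2, Fcgr4 and Scarb1), with a median of 0.08. Of all genes, 12.1% rose and 13.0% fell in that comparison, so the list was called at about the share of all genes. The count of 6 was 3 without e-cigarette 2 or e-cigarette 5. In smoke against e-cigarette, Scarb1 was higher by 0.72 and Cd14, the endotoxin co-receptor gene, was lower at -0.42. Trem2, a lipid-sensing receptor gene, fell by 0.63, from 2.64 ± 0.585 CPM in air to 1.70 ± 0.346 in e-cigarette (SD, n = 6). The Fc receptor genes Fcgr2b at 0.07 and Fcgr3 at -0.26, and the adaptor gene Tyrobp at -0.35, were not called.

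Of 16 lysosomal genes, 7 fell in e-cigarette against air (among them Npc2, Ctsl, Hexa and Ctsz) and 2 rose (Lyz2 and Gpnmb), with a median of -0.27. Of all genes, 13.0% fell and 12.1% rose in that comparison. In smoke against air 0 of 16 were called, where 1.59% of all genes were. Npc2, a cholesterol carrier of lysosomes, fell by 1.14 (SE 0.13), and Ctsl, a cathepsin gene, by 0.72 (SE 0.10). Many cell types, thyroid follicles and glands among them, express these genes. With the thyroid score as a covariate, Npc2 was -0.62 (edgeR adjusted p = 0.143) and Ctsl -0.55 (adjusted p = 0.198). Lyz2, which glands also make, ran from 1869 to 6718 CPM in air and from 4840 to 10566 in e-cigarette, far above any marker.

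Of 21 tested complement genes, 4 were called in e-cigarette against air, where 25.1% of all genes were. The ones that rose were Serping1 (0.57), which encodes the C1 inhibitor, and C1s1 (0.47), which encodes a protease bound to C1q. The companion protease gene C1ra was at 0.35 and not called. Cd59a (-0.53), a complement inhibitor gene, and Cfd (-0.74), an alternative pathway gene of adipocytes, fell. In smoke against air 0 of 21 were called, where 1.59% of all genes were.

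In the lists of airspace macrophages, activation and other leukocytes, the counts are small and stand beside 25.1% of all genes called in e-cigarette against air. In that comparison, 1 of 11 airspace and smoke-associated genes rose (Gpnmb) and 2 fell (Atp6v0d2 and Trem2), 2 of 12 activation genes fell (Cd40 and Cxcl10), and 1 of 10 monocyte genes rose (Vcan). Of 10 dendritic cell genes 1 fell, Zbtb46 by 0.93, and of 12 genes shared by leukocytes 3 fell, Cyba, Coro1a and Laptm5. Ptprc, the common leukocyte antigen gene, was at -0.08 and not called. Of 4 tested B cell genes, Cd79b and Fcer2a fell, and of 8 T cell genes Themis rose and Lck fell. In smoke against air, where 1.59% of all genes were called, none of the airspace, activation, monocyte, dendritic, leukocyte, T or B cell genes was. Of 7 tested mast cell genes, Hdc fell in smoke against air and Mcpt4 rose in e-cigarette against air. Of 5 tested neutrophil genes, Ltf rose in e-cigarette against air and 0 were called in smoke against air. Mmp12, the macrophage elastase gene, was at -0.26 in smoke and 0.43 in e-cigarette, and Spp1 at -0.77 and -1.25, none called.

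The calls in these lists changed in settings that take the thyroid content of the libraries into account. With the thyroid score as a covariate, 5 genes of all 17537 were called higher and 15 lower in e-cigarette against air, and 0 in each of the lists of lineage, resident, scavenger, lysosome, complement, airspace and activation genes. That fit called few genes of any kind, and the log2 fold change of Il34 was -1.69 in it. Without e-cigarette 2, 4, 5 and 6, the libraries with the least Tg, 238 genes of all were called higher and 450 lower. Of the lists, 2 lineage genes (Il34 and Irf8), 3 lysosome genes, 1 airspace gene and 1 activation gene were called, all lower, and 0 resident, scavenger and complement genes. The part of thyroid content in these calls cannot be told apart from the exposure.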

How the data were processed

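Whole mouse larynx was profiled by mRNA sequencing in 18 libraries, 6 per group. The submitters' processing notes list the aligner STAR, the read counter featureCounts 1.5.0-p3, and GRCm38 and mm10 as builds. No source used here gives the STAR version, the gene annotation release or whether counting used strand. Per the labels' protocols, an NEBNext Ultra kit was used, which does not mark strand. The authors deposited raw counts per gene and library, with gene coordinates and lengths, and every column name matched the title of 1 sample.

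Genes were kept with filterByExpr (minimum count 10, minimum total 15). One edgeR 4.0.16 model (R 4.3.3) held the 3 groups and no covariate, with TMM factors and a robust quasi-likelihood F test, and p-values were adjusted over all 17537 genes. SEs derive from the F statistic. Alternatives used DESeq2 1.42.0, voom in limma 3.58.1, other scalings, filters and thresholds, a replicate block, composition covariates, a fibroblast covariate added after the data were seen, and leaving out libraries. The edgeR step was tested on simulated data. Pairs of libraries within a group differed beyond counting noise (45 pairs, chi-square over its degrees of freedom of 16.4 to 145). Libraries held 15.6 to 22.5 M counts.

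The markers, the gene lists and the tests were chosen with earlier results of these data known, so no list is independent evidence. The naming rule took all 10 markers, Csf1, Il34 and Tg whatever their p, up to 2 called genes with the smallest p per list and comparison, and the genes most correlated with the markers (log2 CPM, prior count 2). Genes named to list a count, and Siglec1, Spi1, Folr2, Timd4, Prox1, Flt4, C1ra, Fcgr3, Tyrobp, Ptprc, Mmp12 and Spp1, fall outside this rule and were chosen after their values were seen. Of the genes the rule takes, the text names a part. Some genes of these lists are not reported here by name.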

Additional observations from a re-analysis of the deposited data

Results flagged for a closer look

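C1qa in the smoke group had 1 library that stood apart. Smoke 5 read 40.9 CPM, while the other 5 smoke libraries lay between 48.5 and 51.0 CPM, and the gap to its nearest neighbour was 0.749 of the group's range, above Dixon's 95% critical value for 6 samples. The 9 tested markers were examined in 3 groups each, and about 1 in 20 groups is picked out in this way by chance. Smoke 5 was also the lowest smoke library in C1qb, at 26.6 CPM, and in Cd68, at 6.31 CPM, and the highest in Csf1r, Mrc1 and Adgre1.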

How the results depend on the processing

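In smoke versus air and in smoke versus e-cigarette, 0 of 9 tested markers were called in each of 35 alternatives, but in smoke versus e-cigarette the fits with the thyroid covariate and with 4 composition covariates called 0 of all genes and are no check. In e-cigarette versus air the count of 1 became 0 with library totals without factors, no filter on low counts, voom, a thyroid covariate, 4 composition covariates, without e-cigarette 2, 4, 5 and 6, and at an adjusted p below 0.01. It became 2 with the fibroblast covariate, C1qa and C1qc, both lower. The calls over all genes in that fit are not given here, so these 2 have no share beside them. Leaving out 1 library gave 0 to 1 (0 without air 1, 2, 3 or 6 or e-cigarette 1 or 5), and without e-cigarette 4 the 1 marker was C1qa in place of Mrc1. For Mrc1 the adjusted p over its alternatives was 0.00358 to 0.783. Library totals shifted the median of all genes by -0.11 in e-cigarette versus air and by -0.064 in smoke versus air, where RLE factors shifted it by -0.024, about as far as they moved C1qa. Depth limits Marco, with 3 to 18 counts per group.

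Replicate numbers did not pair the samples. Deviations of same-numbered libraries correlated at -0.45 to 0.16, over 0.1 in 3 of 18 pairs, and 0 of 18 pairs were best matches. With the replicate block 0, 1 and 0 markers were called, and Mrc1 in e-cigarette versus air was 0.62 (edgeR adjusted p = 0.0178). With the block, 22 genes of all were called higher and 17 lower in smoke versus air.

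The log2 values that follow changed sign, and the cause was not tested. In smoke versus air, the fibroblast covariate gave -0.055 for Adgre1, -0.045 for Csf1r, -0.24 for Cd68, -0.043 for Mrc1, -0.42 for Lyve1, -0.17 for Cd163, -0.24 for C1qa and -0.10 for Csf1. The 4 composition covariates gave -0.056 for Csf1r, -0.31 for Cd68, -0.23 for Lyve1, -0.30 for C1qa and -0.48 for Csf1. Without air 4, 5 and 6, Cd68 was -0.043, C1qc 0.073 and Csf1 -0.41. Library totals gave -0.013 for Cd68 and -0.062 for C1qa. C1qa was -0.017 with RLE factors, -0.016 without thyroid genes in the totals, -0.017 without a filter, -0.016 in DESeq2 and -0.018 without e-cigarette 2, 4, 5 and 6. It was -0.015 with upper quartile factors, -0.0055 with a filter at 1 CPM, -0.0094 in a fit of only both groups compared and -0.0097 with the thyroid covariate.

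In e-cigarette versus air, the thyroid covariate gave -0.26 for Adgre1, -0.17 for Csf1r and -0.41 for Cd68. The fibroblast covariate gave -0.23 for Adgre1, -0.23 for Csf1r, -0.18 for Cd68, -0.15 for Lyve1 and -0.36 for Cd163. The 4 composition covariates gave -0.045 for Csf1r and -0.52 for Cd68. Without e-cigarette 2, 4, 5 and 6 Cd68 was -0.018, and with voom Csf1 was 0.11. In smoke versus e-cigarette, the thyroid covariate gave 0.43 for Cd68, 0.17 for Mrc1 and 0.12 for Lyve1. The 4 composition covariates gave -0.011 for Csf1r, 0.21 for Cd68, -0.67 for Cd163, -0.26 for C1qc and 0.098 for Cd14. Cd68 was 0.11 with voom and 0.035 without e-cigarette 2, 4, 5 and 6.

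Leaving out single libraries gave, in smoke versus air, -0.046 to 0.064 for C1qa, -0.11 to 0.054 for C1qc, -0.033 to 0.11 for Cd68 and -0.087 to 0.33 for Csf1. In e-cigarette versus air it gave -0.021 to 0.21 for Cd68 and -0.26 to 0.15 for Csf1. In smoke versus e-cigarette it gave -0.18 to 0.049 for Cd68 and -0.054 to 0.14 for C1qb. None of these values had been called in its comparison, except that of Cd14.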
